A study of Mus musculus with 6 samples.

Results

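The genes described here are the ligands, receptors, Smads and secreted antagonists of the TGF-beta and BMP pathways in the colon of mice with dextran sulfate sodium (DSS) colitis. They were chosen by symbol alone: Bmp, Bmpr, Gdf, Acvr, Inhb, Tgfbr and Smad genes with their numbers or letters, Tgfb1, Tgfb2, Tgfb3, Inha, Grem1, the Fst genes, Nog, Chrd and Chrdl1. The rule matched 59 of the 27546 genes in the table. Tissue came from C57BL/6 mice (C57BL/6J in the study's methods), 8 weeks old, either Gm31629-/- (3 libraries, knockout of a long noncoding RNA gene) or their WT littermates (3 libraries). Every mouse had 3% DSS in its drinking water for 7 days and was killed on day 8, so no library shows undamaged colon. DSS is a detergent-like polymer that injures the colon epithelium. The labels describe colons that were flash frozen, and the study's design text names distal colon. All cells of a Gm31629-/- mouse carry the deletion. The libraries were bulk RNA-Seq, and levels are given as fragments per kilobase of exon, scaled to the mapped total (FPKM), a scale on which genes can be compared per length. The comparison asks how the levels of these genes in DSS-injured colon differed when Gm31629 was absent.

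TGF-beta, BMP, GDF and activin ligands are secreted proteins that bring type I and type II receptor kinases together at the cell surface. The type I kinase phosphorylates receptor-regulated Smads, which join Smad4 and enter the nucleus, whereas Smad6 and Smad7 dampen the signal and secreted antagonists such as gremlin, noggin and chordin bind the ligand outside the cell. In the intestine, BMP signaling is known for promoting differentiation toward the crypt surface, with antagonists made by mesenchymal cells near the crypt base, and TGF-beta is known for restraining inflammation and for driving matrix production during repair.

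Several facts about the libraries bear on every value given here. Depth was even, at 18006000 to 18795100 mapped fragments per library by the fragments recovered from the FPKM values. Gm31629 itself is not a row of the table, so the genotype labels could not be checked against it. Y-linked transcripts (Ddx3y, Eif2s3y, Kdm5d and Uty) were above 0 only in Gm31629-/- library 1, where Xist was 0.00606 FPKM against 8.35 to 13.8 in the other 5 libraries, although the study's methods describe male mice. Over 14657 genes, WT libraries correlated with each other at a Pearson's r of 0.979 to 0.985, Gm31629-/- libraries at 0.915 to 0.937, and libraries of different genotype at 0.777 to 0.853. The 15 colon epithelium markers were detected in every library, at a summed 8094 to 9589 FPKM in Gm31629-/- libraries and 12973 to 14171 in WT libraries. Epcam overlapped between the groups (990 to 1179 and 1007 to 1164 FPKM), whereas 9 of the 15 were lower in every Gm31629-/- library, among them the intestinal identity factors Cdx2 (82.1, 11.6 and 14.9 FPKM against 200 to 238) and Cdx1 (73.0 to 126 FPKM against 222 to 237). Several marker lists of other layers of the colon wall moved with genotype. The summed level of 12 smooth muscle genes was 1456 to 2379 FPKM in Gm31629-/- libraries and 24.5 to 46.9 in WT libraries. That of 12 fibroblast genes was 247 to 707 and 22.9 to 44.0. That of 12 enteric neuron and glia genes was 56.0 to 199 and 2.83 to 5.43, and that of 10 endothelial genes 79.7 to 126 and 3.58 to 9.01. The neuronal gene Elavl4 was at 0 in all 3 WT libraries. In bulk tissue, fewer cells of a type and less RNA per cell cannot be told apart, and the part that cell makeup plays in the differences below was not tested.

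Of the 59 genes, 45 had a mean of at least 0.5 FPKM over the 6 libraries and were tested. With limma on log2(FPKM + 1), 24 of the 45 (53.3%) were called higher in Gm31629-/- colon (adjusted p under 0.05, with log2 fold change past 1), beside 18.4% of all genes tested. None was lower by the same rule, beside 4.64% of all genes. Of the 45, 3 had an unadjusted p under 0.05 with a negative fold change, none of them below -1, and voom on the recovered fragments called 1 (Smad6). By adjusted p alone, 28 were higher (28.9% of all genes) and 3 lower (14.6% of all genes). The median log2 fold change of the 45 was 1.37, against 0.15 for all genes tested. The 3 Gm31629-/- libraries lay above the 3 WT libraries for 33 of the 45 (36.3% of all genes) and below them for 4 (21.5%), and the groups overlapped for 8. Of the 45, 16 had a WT mean under 0.5 FPKM and could enter the test only through high Gm31629-/- values. Among the 29 with a WT mean of at least 0.5, 14 (48.3%) were higher, beside 11.4% of 12450 such genes in the table. Because 1 is added to every FPKM, the log2 fold change of a gene at low level is smaller than that of its FPKM.

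**Figure D1:**
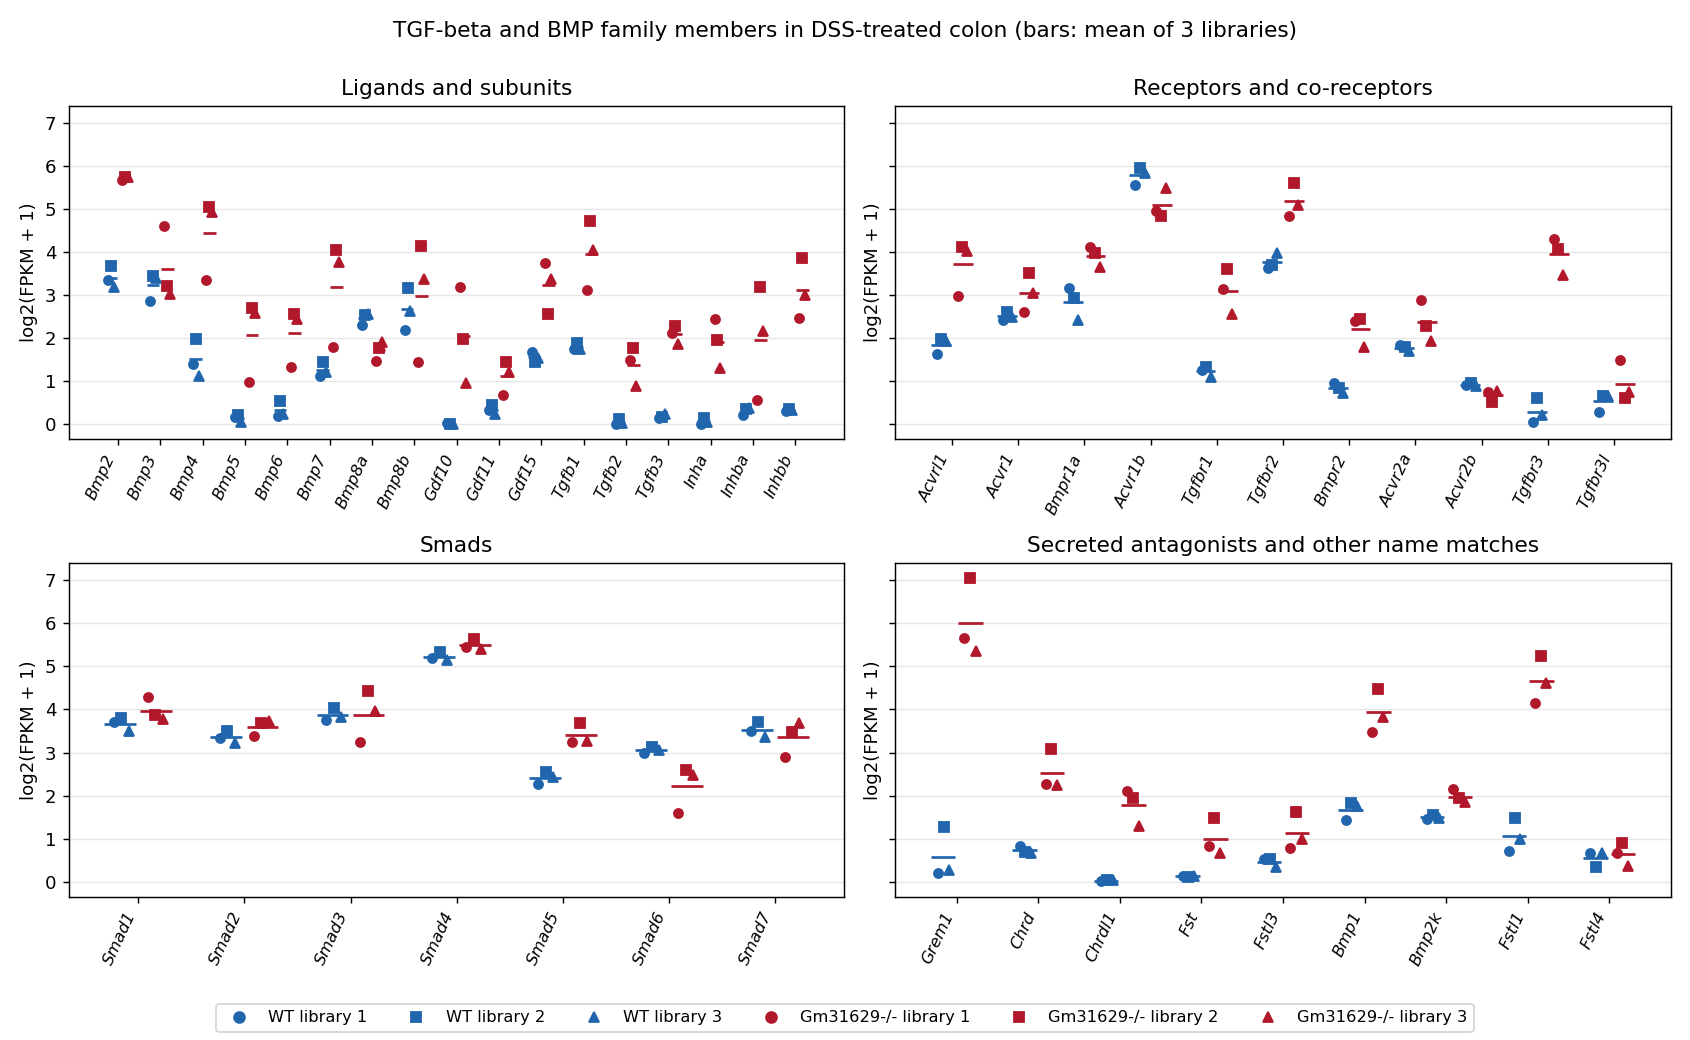
Level of the tested genes reported here in each library, as log2(FPKM + 1), in 4 panels for ligands and subunits, receptors and co-receptors, Smads, and secreted antagonists with the remaining name matches. Blue marks are WT libraries, red marks Gm31629-/- libraries, the marker shape gives the library number and the bars are means of 3 libraries. Grem1, Tgfbr3, Fstl1 and Bmp2 have the groups far apart, while most Smads have them close together or mixed.

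By role, the genes called higher were 5 of 8 BMP ligands tested, 2 of 3 GDFs, 3 of 3 TGF-beta ligands, 2 of 3 activin and inhibin subunits, 3 of 5 type I receptors, 2 of 4 type II receptors, 1 of 2 co-receptors and 4 of 6 secreted antagonists, but 0 of 7 Smads. In the Smad group limma gave 2 genes an adjusted p under 0.05, Smad5 upward and Smad6 downward, and the same 2 were the Smads with an unadjusted p under 0.05. The 0 of 7 rests on the fold threshold, since voom called Smad5 higher and Smad6 lower. The median log2 fold change was 0.25 for the Smads and between 0.98 (type II receptors) and 2.03 (co-receptors) for the other groups. Of the genes called higher, Bmp5, Bmp6, Gdf10, Tgfb2, Tgfb3, Inha, Inhbb, Tgfbr3 and Chrdl1 had a WT mean under 0.5 FPKM. These could enter the test only through high Gm31629-/- values, whereas every tested Smad had a WT mean of at least 4.3 FPKM. Smad9, at a WT mean of 0.0777 FPKM, fell below the level tested. The counts by role are therefore not on an equal footing, and whether roles differed from each other was not tested.

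Promoter sequence was looked at for sites that Smads are known to bind, as a description of these genes. RefSeq promoters on GRCm38.p6 (250 bases before to 50 after an annotated start) were at hand for 41 of the 59 genes, in 49 promoters. Both strands were searched for GGCGCC, a GC-rich Smad site, for GTCT, the short Smad box, and for the palindrome GTCTAGAC, which contains GTCT on each strand. GGCGCC was in 11 of the 49 promoters (22.4%) and in 11.9% of all 32851 promoters, and GTCT was in 44 of the 49 and in 88.0% of all. Among the genes called higher, 16 had a promoter here and 6 of these held GGCGCC, beside 10 of all 41 genes. Acvr1b, Bmp2k, Smad5 and Smad9 held it without being called, in Bmp2k and Smad9 also before the start and outside annotated exons. Whether the site goes with the calls was not tested. The windows below are those of genes called higher in which GGCGCC, in capitals, lies before the start and outside annotated exons, printed 5′ to 3′ on the gene's strand with up to 40 bases on either side. The Grem1 window is chr2:113758681-113758766 (minus strand), the Chrd window chr16:20732884-20732969 (plus), the Bmpr1a window chr14:34502699-34502784 (minus) and the Tgfbr1 window chr4:47352972-47353034 (plus).
Grem1: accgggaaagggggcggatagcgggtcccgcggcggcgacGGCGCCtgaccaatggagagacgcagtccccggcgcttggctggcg
Chrd: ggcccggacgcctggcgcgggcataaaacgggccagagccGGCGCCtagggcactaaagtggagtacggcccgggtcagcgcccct
Bmpr1a: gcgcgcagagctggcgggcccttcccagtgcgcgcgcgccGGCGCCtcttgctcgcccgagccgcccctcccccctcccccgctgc
Tgfbr1: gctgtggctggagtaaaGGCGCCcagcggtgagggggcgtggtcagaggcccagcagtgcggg

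GGCGCC began 78 bases before the Grem1 start and 203 before the Chrd start. The palindrome was in 70 of the 32851 promoters (0.213%) and in 1 of the 49, that of Smad6, an inhibitory Smad whose level is given below. It is shown in capitals in a stretch of 30 bases at chr9:64022045-64022074 (minus strand), overlapping the annotated start.
Smad6: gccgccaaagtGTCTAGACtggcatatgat

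These letters are matches in a reference sequence and say nothing of whether a factor was bound.

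Among the BMP ligands, Bmp2, Bmp4, Bmp5, Bmp6 and Bmp7 were higher in Gm31629-/- colon, while Bmp3, Bmp8a and Bmp8b were not called. Bmp2 (chr2:133552159-133562885 on GRCm38), a ligand of the surface epithelium and mesenchyme, was the most abundant in each Gm31629-/- library, at 49.6, 52.7 and 52.1 FPKM in libraries 1, 2 and 3, against 9.15, 11.8 and 8.11 in WT libraries 1, 2 and 3. The means differed 5.32-fold, with a log2 fold change of 2.31 ± 0.16 (SE; n = 3 and 3, limma adjusted p = 0.000235). Gm31629-/- libraries differed little among themselves for this gene, the SD being 1.62 FPKM on a mean of 51.5. Bmp4 (chr14:46383520-46390669), a mesenchymal ligand, was 9.19, 32.0 and 29.2 FPKM in Gm31629-/- libraries and 1.65, 2.97 and 1.17 in WT libraries. Its log2 fold change was 2.93 ± 0.47 (limma adjusted p = 0.00312), with Gm31629-/- library 1 the lowest of its group and still above every WT library.

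The same low position of Gm31629-/- library 1 was seen in the next 3 ligands. Bmp5 was 0.972, 5.44 and 4.95 FPKM in Gm31629-/- libraries and 0.121, 0.152 and 0.0397 in WT libraries (log2 fold change 1.94 ± 0.43, limma adjusted p = 0.0113). Bmp6, a ligand also known for hepatic iron sensing, was 1.52, 4.89 and 4.40 FPKM against 0.139, 0.456 and 0.177 (log2 fold change 1.79 ± 0.33, limma adjusted p = 0.00559). For both genes the groups did not overlap. Bmp7, an epithelial and renal ligand, was 2.45, 15.4 and 12.6 FPKM in Gm31629-/- libraries and 1.18, 1.71 and 1.31 in WT libraries, with a log2 fold change of 1.94 ± 0.55 (limma adjusted p = 0.0265). The Bmp7 call held only when Gm31629-/- library 1 was left out (log2 fold change 2.64, limma adjusted p = 0.000399); leaving out any of the other 5 libraries took the limma adjusted p to between 0.0600 and 0.0892.

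Bmp3, a ligand that opposes other BMPs, ranged from 7.13 to 23.4 FPKM in Gm31629-/- libraries and from 6.25 to 9.78 in WT libraries, so the groups overlapped (log2 fold change 0.38, 95% interval -0.60 to 1.37, limma adjusted p = 0.482). The Bmp3 value was -0.11 without Gm31629-/- library 1. Bmp8a and Bmp8b are near-identical neighbors whose reads may be shared, and their split is uncertain. Bmp8a was 1.79 to 2.74 FPKM in Gm31629-/- libraries and 3.93 to 4.89 in WT libraries, lower in every Gm31629-/- library but short of the fold threshold (log2 fold change -0.75, limma adjusted p = 0.0141, and -0.28 with epithelial scaling). Bmp8b was spread widely, from 1.74 to 16.5 FPKM in Gm31629-/- libraries, and its log2 fold change ran from -0.25 to 1.09 when 1 library was left out. Bmp10 and Bmp15, ligands of the heart and the oocyte, gave at most 3 fragments in any library.

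Adding the 10 BMP ligands gave 90.7, 138 and 122.6 FPKM in Gm31629-/- libraries and 26.0, 39.6 and 30.4 in WT libraries. Bmp2 supplied 54.7%, 38.3% and 42.5% of the sum in Gm31629-/- libraries and 35.2%, 29.7% and 26.7% in WT libraries. Bmp4 stood at 0.185, 0.607 and 0.561 times the Bmp2 level in Gm31629-/- libraries and at 0.181, 0.252 and 0.145 times in WT libraries, so library 1 of the knockout group was within the WT range for that ratio.

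Of the GDFs, Gdf10 and Gdf15 were called higher. Gdf10, a ligand of connective tissue also named BMP-3b, was 8.09, 2.94 and 0.955 FPKM in Gm31629-/- libraries, with library 1 the highest, and 0.0216, 0 and 0 in WT libraries, where it rested on 2 fragments in all (log2 fold change 2.03 ± 0.50, limma adjusted p = 0.0155). Without WT library 3 the adjusted p for Gdf10 was 0.0563. Gdf15 (chr8:70629393-70632456), a stress-induced cytokine, was 12.47, 4.86 and 9.29 FPKM in Gm31629-/- libraries and 2.19, 1.71 and 1.92 in WT libraries (log2 fold change 1.67 ± 0.30, limma adjusted p = 0.00501). The Gdf15 means differed 4.57-fold. Gdf11 had a positive log2 fold change of 0.77 (limma adjusted p = 0.0268), under the fold threshold. Gdf3, Gdf5, Gdf6, Gdf7 and Gdf9 were too low to test. The largest of them was Gdf3 with 26 fragments in Gm31629-/- library 2, and Gdf5, Gdf6 and Gdf7 had 0 fragments in every WT library, where 0 allows up to 3.

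All 3 TGF-beta ligands were higher in Gm31629-/- colon, and none of them overlapped between genotypes. Tgfb1 (chr7:25687002-25705077), the isoform best known from immune cells, was 7.64, 25.4 and 15.4 FPKM in Gm31629-/- libraries and 2.34, 2.72 and 2.34 in WT libraries, a 6.54-fold difference of means (log2 fold change 2.16 ± 0.37, limma adjusted p = 0.00422). Tgfb2 was 1.81, 2.43 and 0.846 FPKM against 0, 0.0959 and 0.0184 (log2 fold change 1.33 ± 0.24, limma adjusted p = 0.00497). Tgfb3, an isoform of mesenchyme, was 3.34, 3.89 and 2.62 FPKM against 0.112, 0.131 and 0.173 (log2 fold change 1.90 ± 0.17, limma adjusted p = 0.000409). Tgfb1 was the highest of the 3 isoforms in every library. Their sum was 12.8, 31.7 and 18.9 FPKM in Gm31629-/- libraries and 2.45, 2.95 and 2.53 in WT libraries.

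The activin and inhibin subunits Inha and Inhbb were called higher and Inhba was not. Inhbb (chr1:119415465-119422248), the beta-B subunit of activin B, was 4.53, 13.5 and 6.97 FPKM in Gm31629-/- libraries and 0.241, 0.274 and 0.250 in WT libraries (log2 fold change 2.78 ± 0.33, limma adjusted p = 0.00111). Inha, the alpha subunit that turns activins into inhibins, was 4.42, 2.90 and 1.48 FPKM against 0, 0.113 and 0.0361 (log2 fold change 1.84 ± 0.28, limma adjusted p = 0.00271). Inhba, the beta-A subunit of activin A, a cytokine of inflamed tissue, varied widely among Gm31629-/- libraries, at 0.468, 8.07 and 3.48 FPKM, against 0.152, 0.278 and 0.308 in WT libraries. Its log2 fold change of 1.65 ± 0.59 missed the threshold (limma adjusted p = 0.0564), and without Gm31629-/- library 1 it was 2.36 (limma adjusted p = 0.00203). Inhbc and Inhbe gave at most 1 fragment in any library.

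Of 9 type I and II receptors tested, 5 were called higher and 0 lower, beside 18.4% and 4.64% of all genes tested. By limma's adjusted p alone 1 of the 9, Acvr1b, was lower. The summed level of the type I receptors overlapped between genotypes. Tgfbr1, the type I receptor of TGF-beta, was 7.74, 11.2 and 4.87 FPKM in Gm31629-/- libraries and 1.4, 1.52 and 1.13 in WT libraries (log2 fold change 1.87 ± 0.27, limma adjusted p = 0.00219). Acvrl1, the type I receptor of endothelium that binds BMP9 and BMP10, was 6.88, 16.4 and 15.4 FPKM against 2.08, 2.92 and 2.84 (log2 fold change 1.87 ± 0.31, limma adjusted p = 0.00387). Bmpr1a, the main type I BMP receptor of the intestine, was 16.2, 14.7 and 11.5 FPKM against 7.97, 6.67 and 4.32 (log2 fold change 1.07 ± 0.23, limma adjusted p = 0.0101). The Bmpr1a value sat just past the fold threshold: it was 0.97 without Gm31629-/- library 1, 0.85 without WT library 3 and 0.83 after rescaling by the median ratio.

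Acvr1b, the activin type I receptor, was the most abundant of these receptors in every WT library and went the other way, at 29.7, 27.6 and 43.5 FPKM in Gm31629-/- libraries and 46.2, 61.2 and 55.9 in WT libraries (log2 fold change -0.70, limma adjusted p = 0.0310, under the fold threshold). Every Gm31629-/- library lay below every WT library. With epithelial scaling the Acvr1b value was -0.10 (limma adjusted p = 0.710), and the adjusted p was under 0.05 in 2 of the 6 fits that left out 1 library. Acvr1 was not called (log2 fold change 0.55, 95% interval -0.01 to 1.10). Bmpr1b and Acvr1c were below the level tested. Over the 7 type I receptors the summed level was 66.2, 80.6 and 82.8 FPKM in Gm31629-/- libraries and 62.2, 77.8 and 69.1 in WT libraries, so the groups overlapped.

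Of the type II receptors, Tgfbr2 and Bmpr2 were called higher. Tgfbr2 (chr9:116084293-116175360), the type II receptor of TGF-beta, was 27.4, 47.2 and 33.3 FPKM in Gm31629-/- libraries and 11.3, 11.97 and 14.6 in WT libraries (log2 fold change 1.41 ± 0.22, limma adjusted p = 0.00281). Bmpr2, that of BMPs, was 4.23, 4.44 and 2.46 FPKM against 0.947, 0.803 and 0.642 (log2 fold change 1.37 ± 0.22, limma adjusted p = 0.00303). The activin type II receptors were not called, with log2 fold changes of 0.60 (95% interval 0.005 to 1.19) for Acvr2a and -0.24 (-0.59 to 0.11) for Acvr2b. Tgfbr3 (chr5:107106570-107289629), betaglycan, the co-receptor that presents TGF-beta2 and binds inhibin, stood far above the others in its change: 18.7, 15.6 and 9.997 FPKM in Gm31629-/- libraries and 0.0413, 0.535 and 0.154 in WT libraries (log2 fold change 3.65 ± 0.26, limma adjusted p = 0.000242). Tgfbr3l, its paralog, overlapped between the groups and shares 52.2% of its exonic bases with another gene on the same strand.

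The Smads had the lowest median log2 fold change of the roles. Smad4, the common partner, was the most abundant at 42.6, 49.0 and 41.4 FPKM in Gm31629-/- libraries and 35.7, 39.4 and 34.4 in WT libraries (log2 fold change 0.27, 95% interval -0.05 to 0.59, limma adjusted p = 0.143). Smad2, a TGF-beta and activin Smad, was 9.46, 11.8 and 12.4 FPKM against 9.08, 10.3 and 8.37 (0.25, -0.13 to 0.63, limma adjusted p = 0.244). Smad3, its partner in the same branch, was 8.43, 20.51 and 14.5 FPKM against 12.48, 15.3 and 13.1 (0.01, -0.68 to 0.70, limma adjusted p = 0.980). These intervals leave out a 2-fold change on this scale in either direction, yet the sign of the Smad3 value turned under several settings, among them the median ratio (-0.23). Scaling to the epithelial markers, which moved the median of all genes to 0.61, took Smad4 to 0.87 (limma adjusted p = 0.00265) and Smad2 to 0.81 (limma adjusted p = 0.00549), past the p threshold and under the fold threshold.

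Smad7, an inhibitory Smad, was 6.45, 10.2 and 11.8 FPKM in Gm31629-/- libraries and 10.3, 12.04 and 9.33 in WT libraries (log2 fold change -0.17, 95% interval -0.71 to 0.36, limma adjusted p = 0.566), and its sign turned to 0.39 when libraries were scaled to the epithelial markers. Smad6, the other inhibitory Smad, lay lower in every Gm31629-/- library, at 2.03, 5.005 and 4.62 FPKM against 7.00, 7.69 and 7.40 in WT libraries (log2 fold change -0.84, -1.47 to -0.20, limma adjusted p = 0.0410). It stayed short of the fold threshold, and passed it with the median ratio (-1.05) or without Gm31629-/- library 2 (-1.02). The value shrank to -0.53 without Gm31629-/- library 1 and to -0.33 with epithelial scaling (limma adjusted p = 0.364), and the adjusted p was under 0.05 in 2 of the 6 fits that left out 1 library. The 2 BMP Smads tested had positive values, Smad5 at 0.99 (limma adjusted p = 0.00512) just under the fold threshold, which it passed in 4 of the 6 fits that left out 1 library (0.85 to 1.07), and Smad1 at 0.31 (limma adjusted p = 0.200). Smad9, the BMP Smad too low to test, had 109, 70 and 40 fragments in Gm31629-/- libraries and 7, 9 and 7 in WT libraries. Over all 8 Smads the sum was 97.1, 122.8 and 107 FPKM against 90.5, 103 and 87.4.

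**Figure D2:**
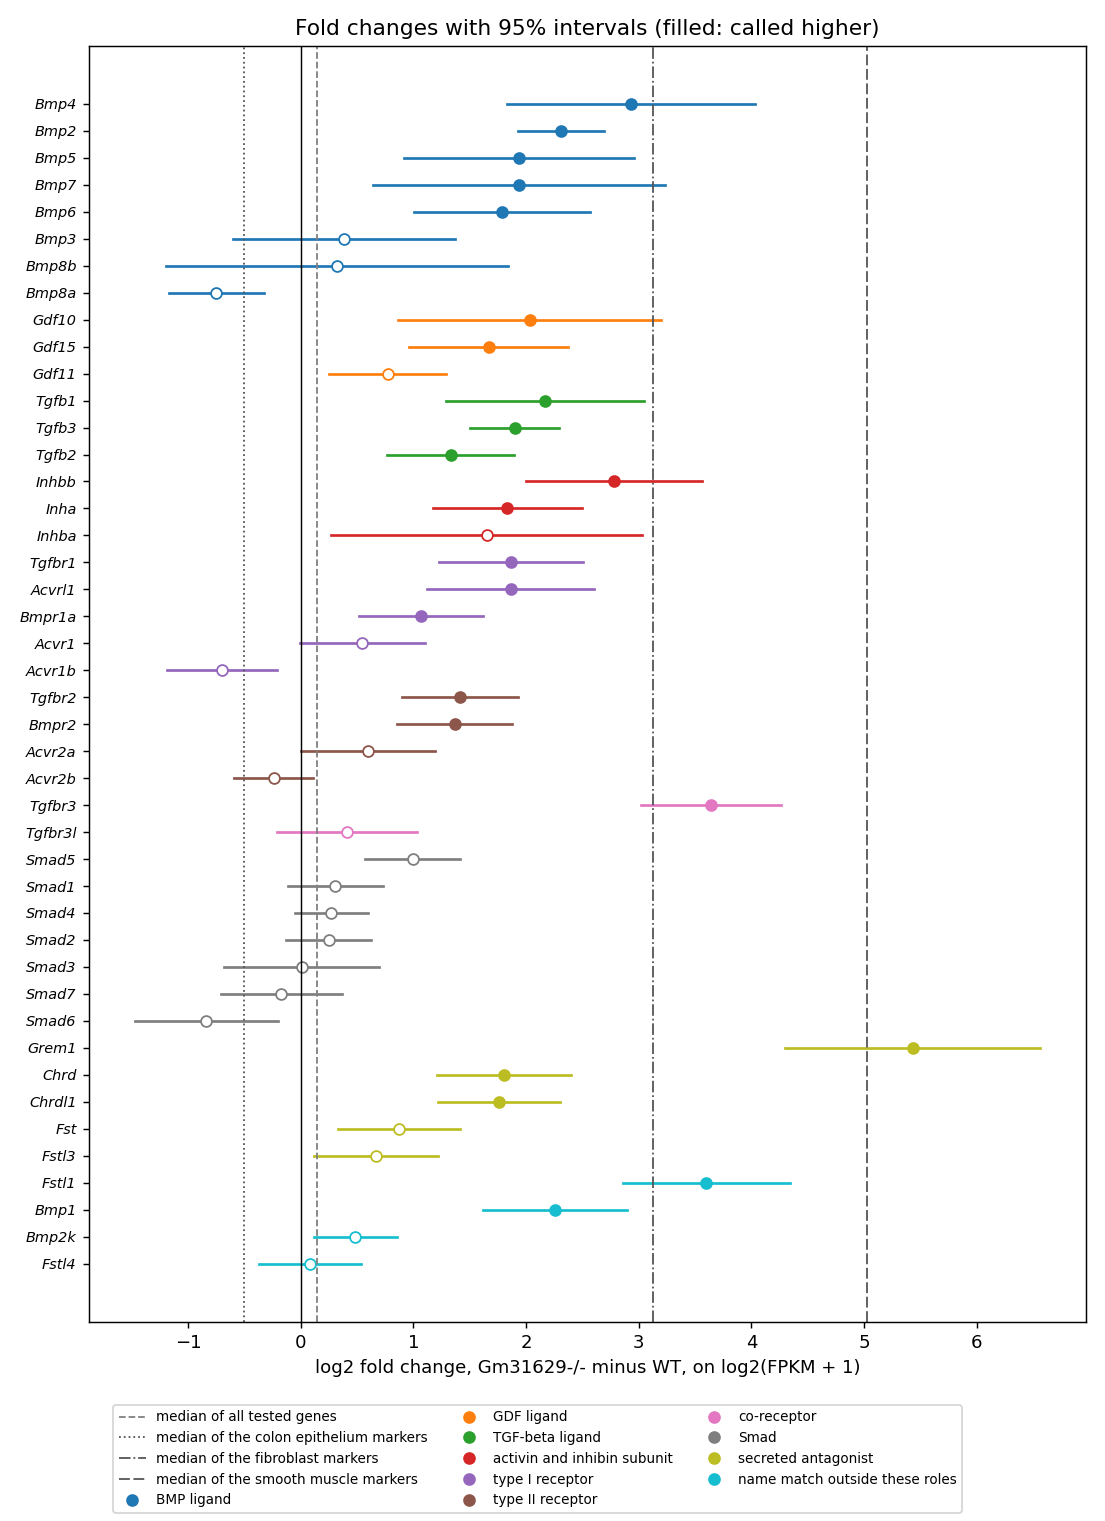
Log2 fold change of the tested genes reported here (Gm31629-/- minus WT, on log2(FPKM + 1)) with its 95% interval, ordered by role and colored by it; filled circles were called higher. Vertical lines give the median of all tested genes (0.15), of the colon epithelium markers (-0.50), of the fibroblast markers (3.13) and of the smooth muscle markers (5.03). On this scale, which shrinks changes of genes at low level, only Grem1 (5.43), Tgfbr3 (3.65) and Fstl1 (3.60) lie to the right of the fibroblast line. Among the Smads, Smad5 (0.99) and Smad6 (-0.84) lie farthest from 0, with intervals that leave it out.

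On log2(FPKM + 1), secreted antagonists held the largest change of the family, that of Grem1. By the ratio of mean FPKM, Gdf10 (556-fold, on 2 WT fragments) and Chrdl1 (136-fold) exceeded it. Grem1 (chr2:113746164-113758646), gremlin 1, a BMP2 and BMP4 antagonist of crypt-base and muscle-layer mesenchyme, was 49.2, 131 and 40.2 FPKM in Gm31629-/- libraries and 0.156, 1.43 and 0.205 in WT libraries. The WT values rested on 12, 107 and 16 fragments and the Gm31629-/- values on 3759, 9994 and 3061. The means differed 122.6-fold, with a log2 fold change of 5.43 ± 0.48 (limma adjusted p = 0.000415). WT library 2 was the highest of its group for Grem1, and it was also the highest of the WT libraries in the summed smooth muscle, fibroblast and endothelial markers. Among Gm31629-/- libraries, library 2 was the highest for Grem1 and for the fibroblast (707 FPKM) and endothelial (126 FPKM) sums. The smooth muscle sum was instead highest in library 1 (2379 FPKM). Whether Grem1 followed any of these markers was not tested.

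Chrd, chordin, was 3.84, 7.54 and 3.73 FPKM in Gm31629-/- libraries and 0.787, 0.618 and 0.583 in WT libraries (log2 fold change 1.80 ± 0.25, limma adjusted p = 0.00194). Chrdl1, chordin-like 1, was 3.32, 2.87 and 1.46 FPKM against 0.00800, 0.0247 and 0.0236, at 1 to 3 fragments per WT library (log2 fold change 1.76 ± 0.23, limma adjusted p = 0.00152). Nog, noggin, fell below the level tested with 19, 36 and 29 fragments in Gm31629-/- libraries and 3, 0 and 0 in WT libraries, the same ordering of genotypes as the tested BMP antagonists. Of the activin antagonists, Fst, follistatin, was 0.773, 1.81 and 0.597 FPKM against 0.0961, 0.0823 and 0.0946; its log2 fold change of 0.87 (limma adjusted p = 0.0203) was under the fold threshold, and rose to 2.46 with a pseudocount of 0.1. Fstl3 gave 0.67 (limma adjusted p = 0.0527).

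Set against the ligands, the summed level of Grem1, Chrd, Chrdl1 and Nog was 57.0, 142 and 46.3 FPKM in Gm31629-/- libraries and 1.05, 2.08 and 0.812 in WT libraries. As a ratio to the summed BMP ligands this was 0.628, 1.03 and 0.378 in Gm31629-/- libraries and 0.0402, 0.0523 and 0.0267 in WT libraries. Grem1 made up 86.4%, 91.9% and 86.8% of the antagonist sum in Gm31629-/- libraries and 14.9%, 69.0% and 25.3% in WT libraries. For the activin branch the order was the other way: Fst and Fstl3 together stood at 0.299, 0.179 and 0.153 times the summed activin beta subunits in Gm31629-/- libraries and at 1.37, 0.972 and 0.606 times in WT libraries. The antagonist sum holds only the genes named. Nbl1, a BMP antagonist outside the naming rule, alone stood above that sum in every WT library (3.70, 6.64 and 4.89 FPKM). In Gm31629-/- libraries Nbl1 was 109, 113 and 65.9 FPKM. With Nbl1 counted, the ratios and the Grem1 shares would differ. The BMP ligand sum includes Bmp3, a ligand that opposes other BMPs. These sums are levels of RNA over the whole tissue and are given as a description, with no test.

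**Figure D3:**
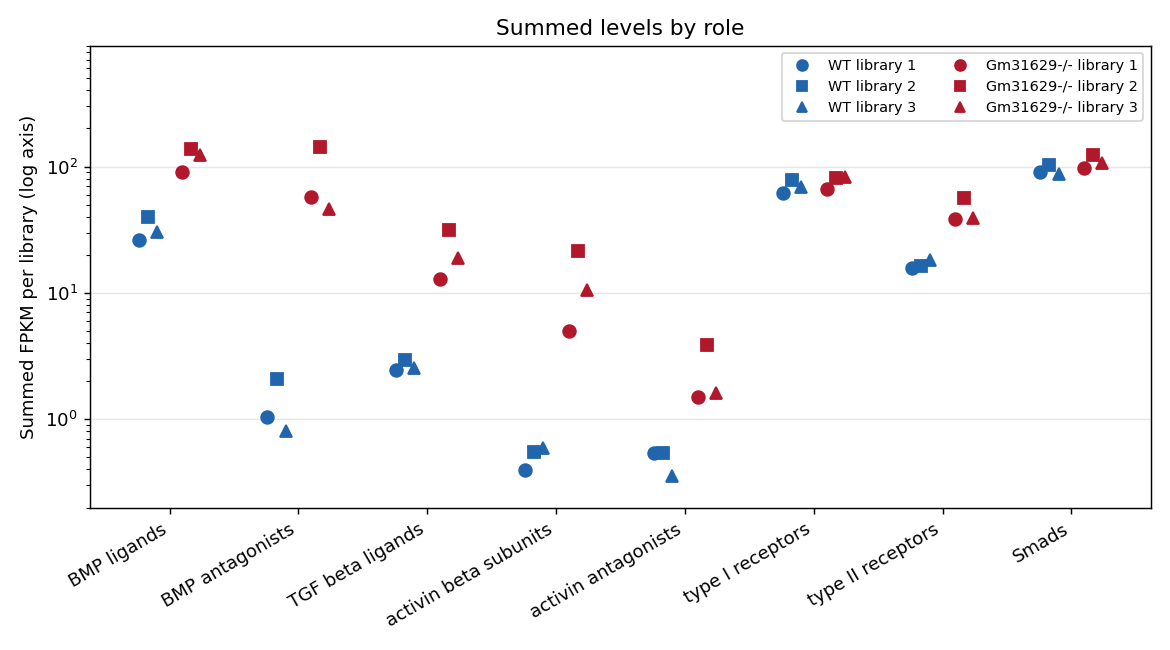
Summed FPKM of the genes of a role in each library, with Grem1, Chrd, Chrdl1 and Nog as BMP antagonists, on a log axis; blue marks are WT libraries, red marks Gm31629-/- libraries, and the shape gives the library number. The BMP antagonist sums are 46.3 to 142 in Gm31629-/- libraries and 0.812 to 2.08 in WT libraries, whereas the type I receptor and Smad sums of the genotypes overlap.

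Some symbols matched the rule by name but encode other kinds of protein. Bmp1, a metalloproteinase that processes procollagen and cleaves chordin, was 10.1, 21.4 and 13.2 FPKM in Gm31629-/- libraries and 1.70, 2.57 and 2.38 in WT libraries (log2 fold change 2.26 ± 0.27, limma adjusted p = 0.00114). Fstl1 (chr16:37776873-37836514), a secreted glycoprotein of mesenchyme, was 16.7, 36.9 and 23.3 FPKM against 0.649, 1.77 and 1.007 (log2 fold change 3.60 ± 0.32, limma adjusted p = 0.000401). Both were higher in every Gm31629-/- library. Bmp2k, a kinase, and Fstl4 were not called, and Fstl5 was too low to test.

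The 14 genes below 0.5 FPKM were Bmp10, Bmp15, Gdf3, Gdf5, Gdf6, Gdf7, Gdf9, Inhbc, Inhbe, Bmpr1b, Acvr1c, Smad9, Nog and Fstl5. Over all 59 genes, tested or not, the Gm31629-/- libraries lay above the WT libraries for 42, which leaves 9 of the untested 14, beside 25.0% of all genes below the filter. Acvr1c, an activin-type receptor of fat tissue, was the untested gene with the most WT fragments, at 32, 62 and 54 against 60, 36 and 45 in Gm31629-/- libraries.

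Gm31629-/- library 1, the library with Y-linked transcripts, took the lowest place of its group for 22 of the 45 tested genes (48.9%, against 31.6% of all genes tested) and the highest for 12 (26.7%, against 38.1%). Among the 24 members called higher, it was lowest for 45.8%, against 38.2% of all genes called higher. It was highest for 29.2% of these members, against 27.0%. It was lowest for Bmp2, Bmp4, Bmp5, Bmp6, Bmp7, Tgfb1, Inhba, Inhbb and Acvrl1 and highest for Gdf10, Gdf15, Inha, Bmpr1a, Tgfbr3 and Chrdl1. In that library the smooth muscle sum was the highest of the 3 (2379 FPKM) and the fibroblast sum the lowest (247 FPKM). Without that library, 26 of the 45 genes were called higher and 0 lower, beside 2705 higher and 766 lower of all 14657 genes tested.

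Pathway genes outside the naming rule were taken as 7 lists by function, with 54 of 68 genes in the table tested. Of these, limma called 26 higher, beside 18.4% of all genes tested, and 0 lower, beside 4.64%. By adjusted p alone 31 were higher (28.9% of all genes) and 1 lower (14.6% of all genes). The same gene (Tab1) was the 1 with an unadjusted p under 0.05 and a negative fold change, and voom also called 0 lower. The median log2 fold change of the 54 was 0.92. The genes that hold TGF-beta in its latent form and release it were called in 8 of 10 cases, from Ltbp4, a matrix binding protein of latent TGF-beta (log2 fold change 3.73, limma adjusted p = 0.000281), down to Itgav, the integrin chain that activates it (1.22, limma adjusted p = 0.00717). Secreted modulators were called in 5 of 8, from Nbl1, a BMP antagonist of the DAN family (3.99, limma adjusted p = 0.000208), to Twsg1, a chordin partner (1.19, limma adjusted p = 0.00560). Nbl1 stood at 109, 113 and 65.9 FPKM in Gm31629-/- libraries and 3.70, 6.64 and 4.89 in WT libraries, so all 3 Gm31629-/- libraries lay above the WT libraries.

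Co-receptors outside the rule were called in 3 of 5 cases, from Eng, endoglin of endothelium (3.18, limma adjusted p = 0.00271), to Vasn, a TGF-beta-binding membrane protein (1.22, limma adjusted p = 0.00481). Intracellular regulators were called in 0 of 13, with a median log2 fold change of 0.07; 1 of the 13 had an adjusted p under 0.05 in each direction in limma, while 3 had an unadjusted p under 0.05 with a positive value and 1 with a negative value. The ligand list held 1 tested gene, Lefty1, which was not called. With voom, 0 of the 13 were called in either direction.

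Transcripts that the pathways are known to induce were mixed. Id1, the best known BMP target, was 33.4, 96.4 and 118 FPKM in Gm31629-/- libraries and 126, 113 and 100.3 in WT libraries (log2 fold change -0.62 ± 0.44, limma adjusted p = 0.277). Id3, regulated alike, was 10.8, 39.4 and 38.1 FPKM against 38.3, 36.1 and 44.9 (log2 fold change -0.62 ± 0.46, limma adjusted p = 0.305). For both, Gm31629-/- library 1 was the lowest of all 6 libraries, and the groups overlapped. The negative values rested on that library: without it they were -0.08 for Id1 and -0.03 for Id3, and with epithelial scaling -0.02 for each. Id2 was 16.4, 22.8 and 9.33 FPKM against 5.37, 5.03 and 4.60 (log2 fold change 1.44 ± 0.29, limma adjusted p = 0.00797). The BMP target list had 3 of 6 called, from Id4 (1.62, limma adjusted p = 0.00273) to Hey1 (1.04, limma adjusted p = 0.00221).

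Of 11 TGF-beta targets, 7 were called higher. Among the 7, Fn1, fibronectin, had the highest log2 fold change (4.73, limma adjusted p = 0.000281). Ccn1, a matricellular protein, had the lowest of the 7 (1.73, limma adjusted p = 0.0332). The Ccn1 call held in 1 of the 6 fits that left out 1 library, and its adjusted p with voom was 0.0503. Over all 11 targets the log2 fold change ran from -0.53 to 4.73, and the groups overlapped for 4. The list shares Col1a1 with the fibroblast markers and Tagln, which was not called, with the smooth muscle markers. Most of its called genes encode matrix proteins that stromal cells make, and the part of cell makeup in their values was not tested.

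Markers of other cell types moved with these results and are given for the whole lists. All 12 fibroblast markers were called higher, with a median log2 fold change of 3.13, as were 11 of 12 smooth muscle markers (median 5.03), 11 of 12 enteric neuron and glia markers (2.1), 10 of 10 endothelial markers (2.69), 8 of 8 macrophage markers (2.73), 7 of 7 neutrophil markers tested (2.65) and 8 of 8 B and plasma cell markers (2.68). Of 15 epithelial markers, 0 were higher and 4 lower (median -0.50); by limma's adjusted p alone 0 of the 15 were higher, by unadjusted p 1 was, and voom called 0 higher. On log2(FPKM + 1), only Grem1, Tgfbr3 and Fstl1 of the members had a log2 fold change above the fibroblast median. Only Grem1 had one above the smooth muscle median. This ranking depends on the scale, which shrinks changes of genes at low level. With voom on the recovered fragments, Gdf10 (8.32) and Chrdl1 (6.83) lay above Ccl11 (6.37), the highest of the fibroblast markers. The part of cell makeup in the values of any single gene was not tested.

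**Figure D4:**
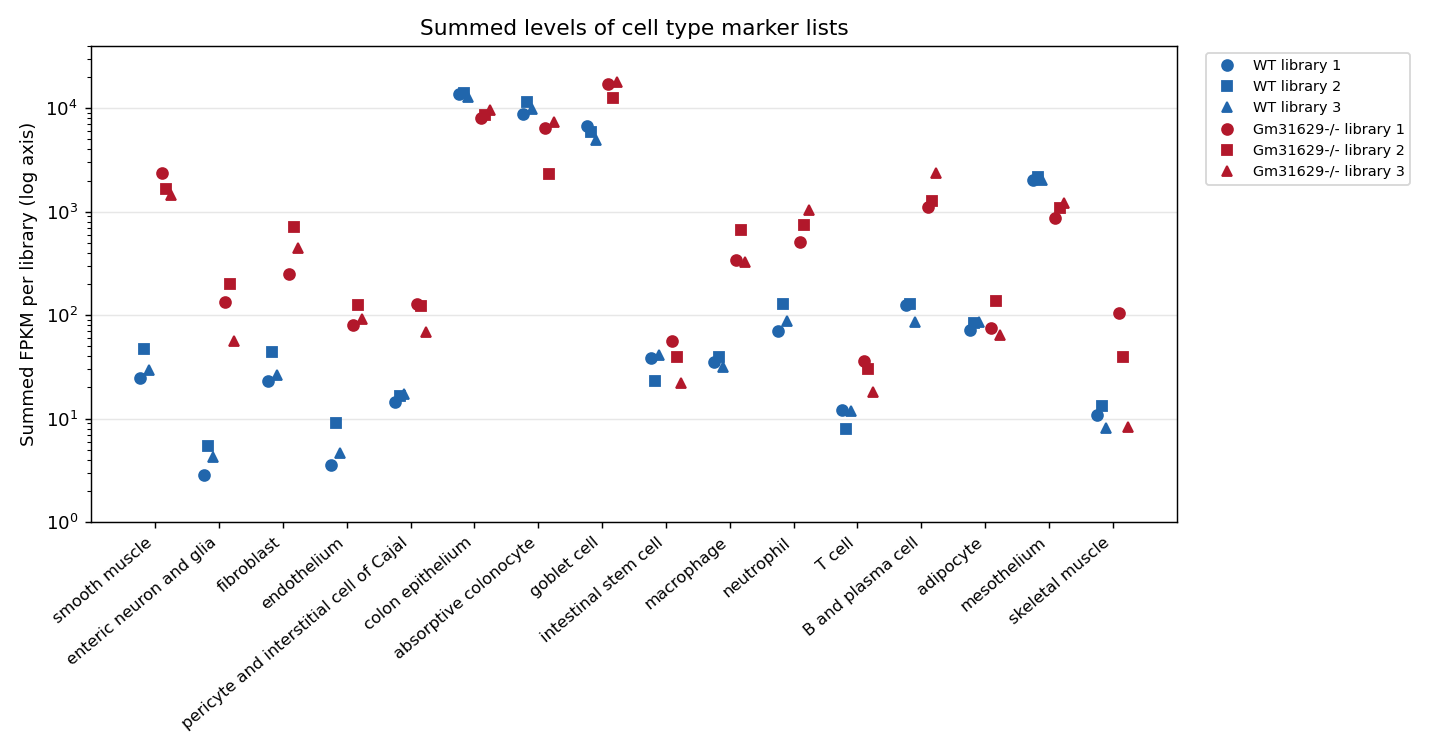
Summed FPKM of 16 cell type marker lists in each library, on a log axis; blue marks are WT libraries, red marks Gm31629-/- libraries, and the shape gives the library number. Smooth muscle (1456 to 2379 against 24.5 to 46.9), nerve, fibroblast, endothelial, macrophage, neutrophil and B and plasma cell sums are higher in all Gm31629-/- libraries, and the colon epithelium sum is lower (8094 to 9589 against 12973 to 14171).

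The remaining lists behaved less evenly. Pericyte and interstitial cell markers were called higher for 5 of 7. Those not called were the interstitial cell of Cajal genes Kit (log2 fold change 0.02) and Ano1 (-0.02), and for both the groups overlapped. T cell markers were called higher for 3 of 8 and goblet cell markers for 4 of 8 with 2 lower. Absorptive colonocyte markers were higher for 1 of 8 with 3 lower, and intestinal stem cell markers for 0 of 6 tested with 1 lower. Adipocyte markers were higher for 3 of 5 tested with 1 lower, mesothelial markers for 2 of 3 with 1 lower, and skeletal muscle markers for 1 of 2. Of the 6 stem cell markers, 0 had an unadjusted p under 0.05 with a positive fold change in limma, and voom called 0 higher.

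Gene overlaps limit a few values, because the library kit does not mark strand and the strand setting of the counting is not given in the sources used here. Bmp6 shares 5.74% of its exonic bases with Txndc5 on the opposite strand, which was 40.5 to 45.3 FPKM in Gm31629-/- libraries and 89.8 to 115 in WT libraries, the opposite order to Bmp6. Bmp5 shares 46.7% with Gm26903, a gene at 0 to 0.107 FPKM, and Fstl3 shares 47.3% with Prss57, at 0 to 0.0956 FPKM.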

How the data were processed

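Colon RNA of 3 Gm31629-/- and 3 WT mice was sequenced (TruSeq RNA kit). The deposited table holds FPKM per gene and library, made by the authors; the submitters' processing notes name HISAT2 2.1.0, HTSeq 0.6.0 and GRCm38, and the annotation is not given in the sources used here. Symbols came from GENCODE M21 for 27488 of 27546 genes. The study's methods speak of RNA pooled from 3 mice per genotype; the 6 columns were taken as separate samples, and if they are not separate animals the p-values measure only technical spread. FPKM times exon length gave whole fragments (within 0.1) for 96.3% to 97.2% of values up to 20 fragments, and hence the depth; fragment counts cover counting error only, and a value of 0 allows up to 3.

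Genes with a mean of at least 0.5 FPKM (14657) entered a linear model of log2(FPKM + 1) on genotype (limma 3.58.1, R 4.3.3) with a trended prior variance, two-sided, with Benjamini-Hochberg adjustment over all of them; called means adjusted p under 0.05 with a log2 fold change past 1 in size, the study's fold threshold. DEGseq, which the study used, needs counts and was not run. The script was tested on simulated data. Alternatives changed the pseudocount, filter, scaling, test and the libraries included. Annotated symbols matching the rule but not in the table (Gdf1 and Gdf2) were not analysed here. Values in each library are given for every member called and for Bmp2, Bmp4, Bmp7, Gdf15, Tgfb1 to Tgfb3, Inhba, Bmpr1a, Bmpr2, Tgfbr1, Tgfbr2, Smad2, Smad3, Smad4, Smad7, Grem1, Nog, Chrd, Chrdl1 and Fst, called or not; of the other pathway lists, the called gene with the highest and lowest fold change, Id1, Id2 and Id3 are named. Some items are not reported here, though counts over lists include them. The other genes with values, such as Acvr1b, Bmp8a, Smad5, Smad6, Nbl1's library values and the overlapping neighbors, were picked with their values in view. The members and lists were chosen with earlier results of these data known. Promoter sequences are from RefSeq (GRCm38.p6). Figures were drawn with matplotlib 3.10.9.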

Additional observations from a re-analysis of the deposited data

How the results depend on the processing

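Of 30 tested members with values in each library, refitted under 15 alternatives, 411 refits kept direction and side of the threshold, 8 passed it newly, 10 fell short of it and 7 changed sign. With a mean of at least 5 FPKM, 12 members and 16 other pathway genes were called higher, of fewer genes tested. Over all genes at that filter, 956 of 7242 were higher. Smad6 was called lower with a pseudocount of 0.1, the median ratio, voom on recovered fragments or without Gm31629-/- library 2, so the members called lower came to 1 in each; by adjusted p alone they came to 3, with 1 other pathway gene lower. Leaving out each library gave 22 to 26 members higher and 0 to 1 lower, and 21 to 28 other pathway genes higher and 0 lower (0 to 0). Over all 14657 genes the same fits gave 2285 to 2892 higher and 513 to 766 lower. The sign of Smad3 turned with the median ratio (-0.23) and without Gm31629-/- library 2 (-0.27) or 3 (-0.03) or WT library 1 (-0.05) or 3 (-0.01), and that of Smad7 with epithelial scaling (0.39) and without Gm31629-/- library 1 (0.056). Without 1 library Smad3 ranged from -0.27 to 0.33 and Smad7 from -0.33 to 0.056; the cause was not tested. Of members without library values, Bmp3, Bmp8b and Fstl4 changed sign when 1 library was left out and Acvr2b with epithelial scaling (0.02). The median of all genes was 0.15, moved to -0.05 by the median ratio and to 0.61 by epithelial scaling, with 64.7% and 94.8% of calls higher in place of 79.9%. Deviations from the group means gave no sign that library numbers pair the samples (same-number correlations of 0.0358, -0.108 and 0.0141). With 3 libraries per group this cannot settle whether they were paired. With the replicate block 25 members and 26 other pathway genes were higher and 0 lower, beside 2709 higher and 648 lower of all 14657 genes.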
